A study of Mus musculus with 8 samples.

Results

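The genes described here are the 48 intraflagellar transport, BBSome, tectonic, nephrocystin, B9 domain and centrosome genes of the mouse lung, taken as every listed symbol made of Ift, Bbs, Cep, Tctn, Nphp or B9d followed by a digit and with a mean of at least 1 CPM (reads of a gene per 1000000 reads of the library) over the 8 libraries. They are 48 of 15728 listed genes. All 48 symbols that matched the name also met the level, so no gene lay just outside it, and the lowest inside were Cep57l1 with a mean of 1.83 CPM and Nphp4 with 2.02 CPM. RNA came from unexposed whole lung at 4 weeks of age, from triply n/i/eNOSs-/- mice, deficient in all NOS isoforms (nNOS, iNOS and eNOS) (4 libraries, called triple NOS knockout or knockout), and from wild type mice (4 libraries), both on C57BL/6J. It was profiled by CAGE, which captures capped RNA and reads the 5′ end, so that each transcript is counted once at its start and levels of different genes need no division by length. Sex, litter and the deleted part of each gene are not given in the labels, and a deletion in all cells from conception leaves the animal's development in every comparison.

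A cilium is a microtubule axoneme that grows from a centriole docked at the membrane, and most cells make a single primary cilium for sensing while multiciliated airway cells make many motile ones that move mucus. Intraflagellar transport (IFT) trains carry building material along the axoneme: IFT-B complexes move outwards with kinesin, IFT-A complexes serve the return with dynein, and the BBSome is a cargo adaptor that rides on the trains and removes membrane proteins. The transition zone is the gate at the ciliary base, formed by tectonic, B9 and nephrocystin proteins with Cep290. Cep genes mostly encode centriole and centrosome proteins, which serve the spindle of dividing cells as well as the ciliary base.

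The libraries held 13014134 to 15096188 reads in knockout lungs and 15598154 to 18593913 reads in wild type lungs, so every knockout library was shallower than every wild type one. A count of 3 reads corresponded to 0.161 to 0.231 CPM. The targeted gene that the table lists, Nos3, had 5.56, 8.32, 8.83 and 6.76 CPM in knockout libraries against 18.18, 22.75, 19.8 and 18.59 CPM in wild type libraries (log2 fold change -1.38, limma adjusted p = 4.58e-05). Whether the counted starts lie in the deleted part is not given, and Nos1 and Nos2 were not analysed here. Alveolar type 2 cell markers were present in both genotypes but lower in the knockout for 5 of 9 genes (1 was higher), with a sum of 49750 to 61780 CPM in knockout libraries and 82950 to 99690 CPM in wild type libraries, a ratio of 0.583. Sftpc (surfactant protein C) had 40700 ± 4970 CPM in knockout lungs and 75400 ± 7580 CPM in wild type lungs (SD, n = 4 each; log2 fold change -0.89, limma adjusted p = 0.000299). On the first principal component, which held 62.5% of the variance, knockout replicate 1 lay at -20.96 and the other knockout libraries at -31.61 to -28.29, against 27.34 to 28.49 in wild type.

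Most of the 48 genes did not pass the test between genotypes: 2 were higher in the knockout (Ift52 and Cep55), 6 were lower (Ift27, Ift88, Bbs7, Bbs4, B9d1 and Cep350) and 40 were not called. The test was limma on log2(CPM + 0.5), two-sided, with Benjamini-Hochberg adjustment over all 14065 genes tested and a threshold of 0.05. The 8 called are 16.7% of the members, against 30.9% called in either direction over all genes tested, 16.6% higher and 14.3% lower. Without wild type replicate 2 the lower members numbered 3, without wild type replicate 3 they numbered 2, and 1 member was higher without knockout replicate 3 or wild type replicate 4. The median log2 fold change was -0.017 over the members and 0.013 over all genes, and the median size of change without its sign was 0.15 over the members and 0.19 over all genes, with a median standard error of 0.1 in both. A change beyond 0.5 on the log2 scale was found in 3 members (6.25%) and in 12.7% of all genes tested. The libraries of the genotypes did not overlap for 9 members, where 31.2% of all genes tested had no overlap. In whole lung RNA, fewer cells of a type and less RNA per cell cannot be told apart.

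**Figure D1:**
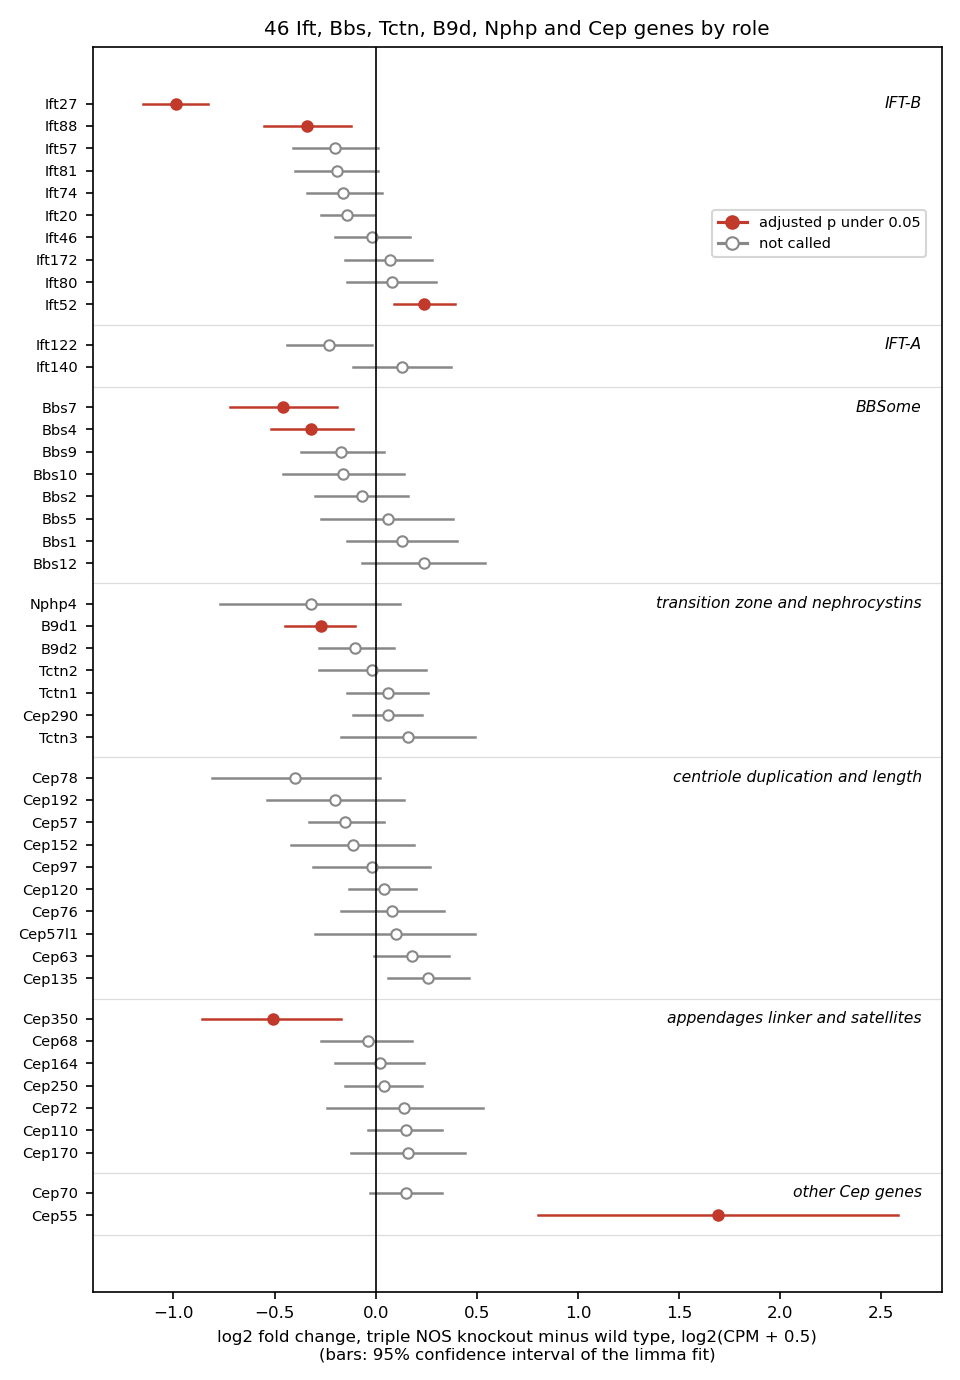
Log2 fold change of 46 of the genes, triple NOS knockout minus wild type, on the log2(CPM + 0.5) scale (x axis) by gene and role (y axis); points are limma estimates, bars their 95% confidence intervals, and filled red points have an adjusted p under 0.05. Ift27 at -0.99 and Cep55 at 1.69 stand outside the others, and the 38 genes not called that are drawn lie between -0.40 and 0.26.

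Among the IFT-B genes, which encode the anterograde trains, Ift27 was the member with the strongest call. Ift27 is a small GTPase that pairs with Ift25 (listed under its older symbol Hspb11) and in mice is needed for the BBSome to leave the cilium. It had 20.73, 19.41, 19.88 and 22.51 CPM in knockout libraries, against 42.05, 38.99, 43.48 and 41.22 CPM in wild type libraries. All knockout libraries lay far below all wild type libraries and each genotype varied little, with means of 20.6 ± 1.37 CPM in knockout lungs and 41.4 ± 1.88 CPM in wild type lungs (SD, n = 4 each), a ratio of 0.50. The log2 fold change was -0.99 (SE 0.0721, limma adjusted p = 4.22e-06), and it stayed between -1.03 and -0.96 and past the threshold in all 19 alternative settings tried.

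The promoter of Ift27 is shown because it belongs to the gene with the strongest call and holds a short RFX motif. RFX factors drive many ciliary genes. The stretch is the 250 bases before the RefSeq start on the minus strand at chr15:78174082-78174331 (GRCm38.p6). The short motif GTTGCCA is in capitals and begins 9 bases before the start. It was found in 5.02% of all 27025 genes with a RefSeq promoter, and binding to it was not tested.
Ift27: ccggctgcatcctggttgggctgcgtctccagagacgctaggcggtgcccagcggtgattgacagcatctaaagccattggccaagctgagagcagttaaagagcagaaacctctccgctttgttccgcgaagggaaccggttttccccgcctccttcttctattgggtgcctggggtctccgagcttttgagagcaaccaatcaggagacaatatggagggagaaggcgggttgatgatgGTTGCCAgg

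Ift88, an IFT-B core subunit whose loss in mice stops cilium assembly, was lower by a smaller margin. It had 10.80, 10.55, 12.97 and 12.52 CPM in knockout libraries and 13.28, 15.06, 16.51 and 14.75 CPM in wild type libraries. The groups did not overlap, but the highest knockout and the lowest wild type library lay close together (log2 fold change -0.34, SE 0.0993, limma adjusted p = 0.0249). Leaving out any of knockout replicates 1 and 2 and wild type replicates 2 to 4 ended the call, with adjusted p of 0.0501 to 0.0735.

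Ift52, another core subunit that binds Ift88 and Ift46, moved the other way. It had 53.59, 51.53, 56.38 and 47.72 CPM in knockout libraries, against 45.22, 45.01, 44.34 and 41.80 CPM in wild type libraries, and the groups did not overlap. Its means were 52.3 ± 3.65 CPM in knockout lungs and 44.1 ± 1.57 CPM in wild type lungs (SD, n = 4 each), with a log2 fold change of 0.24 (SE 0.0681, limma adjusted p = 0.0201). The adjusted p was 0.0646 without knockout replicate 3 and 0.0531 without wild type replicate 4. The 100 bases before its RefSeq start, on the plus strand at chr2:163017253-163017352 (GRCm38.p6), are shown because it was the IFT member called higher. Neither RFX motif searched was found in its promoter window of 300 bases. Most members lacked both, and among those not called 7 of 32 held one.
Ift52: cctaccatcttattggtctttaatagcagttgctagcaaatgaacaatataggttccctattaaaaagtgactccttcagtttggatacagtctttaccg

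The other 7 IFT-B members were not called and had log2 fold changes of -0.20 to 0.08. Ift20, which also sits at the Golgi and sorts proteins towards the cilium, was the most abundant of all 48 genes, with 122.68, 134.09, 134.50 and 132.93 CPM in knockout libraries and 148.99, 153.60, 139.03 and 136.88 CPM in wild type libraries. Its groups did not overlap, yet the difference of -0.14 (log2, SE 0.0606) missed the threshold (limma adjusted p = 0.0991). The tubulin-binding pair Ift74 and Ift81 had log2 fold changes of -0.16 and -0.19, and Ift57, a partner of Ift20, had -0.20 and was called lower without knockout replicate 2 (-0.28, limma adjusted p = 0.0284). Ift46, Ift80 and Ift172 lay within 0.08 of no difference. Summed over the 10 IFT-B genes, knockout libraries held 338.3, 352.4, 359.1 and 352.1 CPM against 392.2, 392.1, 389.1 and 387.1 CPM in wild type libraries, a ratio of 0.898, of which Ift27 and Ift20 made up most of the gap.

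Both IFT-A members, needed for retrograde transport and for entry of membrane receptors, were not called by limma, edgeR or DESeq2, and 1 (Ift122) had an unadjusted p under 0.05. By limma 30.9% of all genes tested were called. Ift122 had 8.74, 8.45, 7.80 and 9.22 CPM in knockout libraries and 11.24, 9.68, 9.12 and 10.39 CPM in wild type libraries, with a log2 fold change of -0.23 (SE 0.0965, limma adjusted p = 0.096). Ift140 averaged 8.79 ± 1.0 CPM in knockout lungs and 7.99 ± 0.852 CPM in wild type lungs (SD, n = 4 each), with a log2 fold change of 0.13.

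Unequal change within the trains can be read from ratios inside a library, which do not depend on its total. Ift27 divided by Hspb11, its dimer partner, was 0.368, 0.306, 0.282 and 0.325 in knockout libraries against 0.792, 0.754, 0.754 and 0.67 in wild type libraries. Hspb11 itself had 64.9 ± 6.45 CPM in knockout lungs and 56.0 ± 4.45 CPM in wild type lungs (SD, n = 4 each), a log2 fold change of 0.21 that was not called (limma adjusted p = 0.086). Ift52 divided by Ift88 was 4.96, 4.88, 4.35 and 3.81 in knockout libraries and 3.41, 2.99, 2.69 and 2.83 in wild type libraries. Neither of these overlapped between genotypes. Bbs7 divided by Bbs9, of the BBSome, did overlap, with 1.02, 0.709, 0.937 and 1.1 in knockout libraries and 1.16, 0.977, 1.22 and 1.27 in wild type libraries. The ratios were chosen after the values were seen, so no test is given for them.

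Trains also hold subunits with other symbols, and their motors are named apart. Of 22 such genes tested, 1 was higher and 5 were lower in the knockout. The 6 called are 27.3% of the 22, against 30.9% of all genes tested. Rabl5, now called Ift22 and outside the symbol rule by its older name, had 21.53, 18.87, 20.15 and 20.75 CPM in knockout libraries and 28.35, 31.57, 28.64 and 27.44 CPM in wild type libraries. It is, like Ift27, a small GTPase of IFT-B, and its log2 fold change was -0.50 (limma adjusted p = 0.000717). The dynein-2 intermediate chain Wdr34 (log2 fold change -0.40, limma adjusted p = 0.00679) and the dynein-2 light chain Tctex1d2 (-0.36, 0.0154) were also lower. Dynll1, a light chain shared by many dyneins and other complexes, was the abundant exception and was higher, with 839 ± 67.8 CPM in knockout lungs and 691 ± 17.5 CPM in wild type lungs (SD, n = 4 each; log2 fold change 0.28, limma adjusted p = 0.00913). The IFT-A subunit Wdr19 (-0.37) and the light chain Dynlrb2 (-0.26) completed the lower genes and are named here after their values were seen. The number lower was 3 without wild type replicate 1, 3 or 4, and the number higher was 2 without knockout replicate 1.

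In the BBSome group, 2 of 8 members were lower and 0 were higher by limma (also 0 higher by edgeR, by DESeq2 and at an unadjusted p under 0.05), with a median log2 fold change of -0.11. The 2 called are 25.0% of the 8, against 30.9% of all genes tested. Bbs7, a subunit built on a beta-propeller, had 7.88, 6.42, 7.18 and 9.07 CPM in knockout libraries and 10.53, 9.04, 12.01 and 10.96 CPM in wild type libraries. Its groups touched, since knockout replicate 4 lay just above wild type replicate 2, and its log2 fold change was -0.46 (SE 0.122, limma adjusted p = 0.016). The adjusted p was 0.0504 without wild type replicate 3.

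Bbs4, the subunit that in human cells binds the satellite protein PCM1, had 8.15, 8.45, 8.83 and 8.07 CPM in knockout libraries and 11.48, 11.35, 9.93 and 9.55 CPM in wild type libraries. The groups did not overlap (log2 fold change -0.32, SE 0.0928, limma adjusted p = 0.0241), and leaving out knockout replicate 4, wild type replicate 1 or wild type replicate 2 ended the call, with adjusted p of 0.0513 to 0.0739. Bbs4 overlaps the listed gene Adpgk in the GENCODE annotation. Since the counting by strand is not given, reads of this pair could be split between them.

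The 250 bases before the start of Bbs7 and a window of 30 bases around the match in Bbs4 are shown because both genes hold the full RFX X-box, in capitals. Both lie on the minus strand of GRCm38.p6, Bbs7 at chr3:36613390-36613639 and Bbs4 at chr9:59353464-59353493. The match began 121 bases before the start in Bbs7 and 24 bases after it in Bbs4.
Bbs7: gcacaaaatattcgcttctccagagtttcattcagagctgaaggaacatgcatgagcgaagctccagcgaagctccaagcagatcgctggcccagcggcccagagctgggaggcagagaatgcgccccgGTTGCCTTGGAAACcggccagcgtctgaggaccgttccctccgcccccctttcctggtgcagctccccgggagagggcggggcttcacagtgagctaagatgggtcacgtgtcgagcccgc
Bbs4: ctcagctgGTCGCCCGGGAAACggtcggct

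The remaining BBSome members were low and were not called, with log2 fold changes of -0.17 to 0.24. The subunits Bbs1, Bbs2, Bbs5 and Bbs9 had 0.13, -0.07, 0.06 and -0.17. Bbs10 and Bbs12, chaperonin-like proteins that help assemble the complex, had -0.16 and 0.24. Bbs12 had 3.29 ± 0.0698 CPM in knockout lungs and 2.75 ± 0.548 CPM in wild type lungs (SD, n = 4 each), from 35 to 58 reads in a library. Summed over the 8 genes, knockout libraries held 50.37 to 55.1 CPM and wild type libraries 55.44 to 63.79 CPM. Of 12 partner genes, 2 were higher in the knockout and 0 were lower by limma (0 by edgeR, and 1, Rab11fip3, by DESeq2 and at an unadjusted p under 0.05). By limma 16.7% of the partners were called, against 30.9% of all genes tested. The higher ones were Rab11a, a recycling GTPase upstream of ciliary membrane delivery (162 ± 10.9 CPM in knockout lungs and 135 ± 7.31 CPM in wild type lungs, SD, n = 4 each, log2 fold change 0.26, limma adjusted p = 0.0123), and Mkks, the third chaperonin-like assembly factor (log2 fold change 0.21, limma adjusted p = 0.0329, and 0.0671 without knockout replicate 1). The number higher was 1 without knockout replicate 1 or 2, without wild type replicate 1 or 4, and in the fit with no variance trend. The number lower was 1 in the limma fit with the replicate number as a block.

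At the transition zone, 1 of 9 members was called (11.1%, against 30.9% of all genes tested). B9d1, a B9 domain protein of the gate, had 18.48, 21.98, 21.60 and 21.52 CPM in knockout libraries and 26.32, 23.39, 26.21 and 25.45 CPM in wild type libraries. The groups did not overlap and knockout replicate 1 was the lowest (log2 fold change -0.27, SE 0.08, limma adjusted p = 0.0236). The call was lost without knockout replicate 1 or without wild type replicate 1, 3 or 4, with adjusted p of 0.0502 to 0.0642. Its partner B9d2 had a log2 fold change of -0.10 and was not called.

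Nphp4, a nephrocystin and a gene of few reads, had 1.99, 2.16, 1.86 and 1.0 CPM in knockout libraries and 2.27, 1.72, 2.89 and 2.24 CPM in wild type libraries, which overlapped. The tectonics Tctn1, Tctn2 and Tctn3 had 0.06, -0.02 and 0.16, and Cep290, the large protein that links the zone to the membrane, had 0.06.

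Among 17 transition zone genes with other symbols, 2 were higher and 1 was lower, or 2 lower without wild type replicate 4. With all 8 libraries 17.6% of the 17 were called, against 30.9% of all genes tested. Tmem107, a membrane protein of the gate, had 42.5 ± 3.15 CPM in knockout lungs and 60.1 ± 1.57 CPM in wild type lungs (SD, n = 4 each; log2 fold change -0.50, limma adjusted p = 0.000428). Arl13b, the ciliary membrane GTPase, had 35.6 ± 0.646 CPM in knockout lungs and 28.2 ± 1.25 CPM in wild type lungs (SD, n = 4 each; log2 fold change 0.34, limma adjusted p = 0.0028). Ahi1, the Joubert syndrome protein jouberin, had 8.39 ± 1.24 CPM in knockout lungs and 5.28 ± 0.494 CPM in wild type lungs (SD, n = 4 each; log2 fold change 0.61, limma adjusted p = 0.00402).

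**Figure D2:**
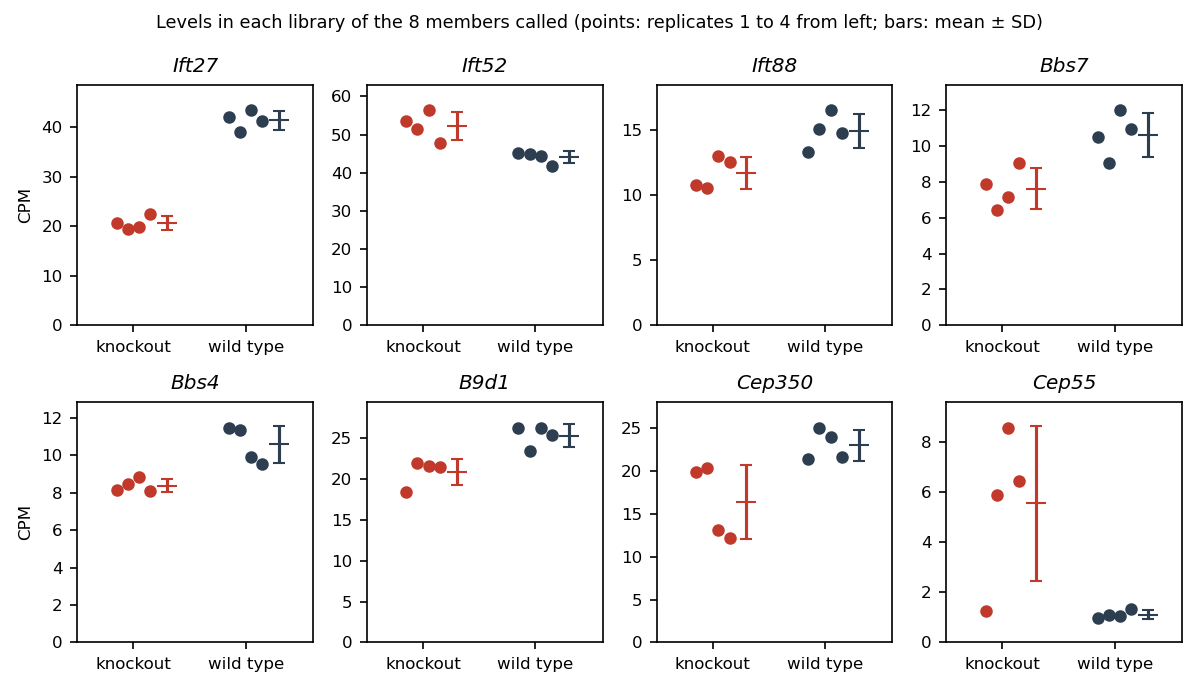
CPM (y axis, from 0) of the 8 genes called, in each library of the triple NOS knockout (left, red) and of wild type (right, dark); points are replicates 1 to 4 from left and bars the mean ± SD (n = 4). Ift27 lies at 19.41 to 22.51 CPM in the knockout and 38.99 to 43.48 CPM in wild type, while Cep55 lies at 1.26 CPM in knockout replicate 1 and at 5.88 to 8.56 CPM in the other knockout libraries, against 0.96 to 1.35 CPM in wild type.

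No gene of centriole duplication and length was called, against 30.9% of all genes tested, and the 10 members had log2 fold changes of -0.40 to 0.26. By limma, 0 of 10 had an adjusted p under 0.05, edgeR and DESeq2 on the recovered reads called none, and 1 (Cep135) had an unadjusted p under 0.05. Cep135, a protein of the cartwheel from which a new centriole grows, had 9.80, 9.47, 9.87 and 10.22 CPM in knockout libraries and 7.24, 8.60, 8.78 and 8.08 CPM in wild type libraries, with no overlap (log2 fold change 0.26, SE 0.0908, limma adjusted p = 0.0519). It passed the threshold in 3 of 19 alternative settings. Cep63, which recruits Cep152 to the parent centriole, was the most abundant at 33.85, 36.45, 30.85 and 29.20 CPM in knockout libraries and 27.69, 31.30, 27.37 and 28.34 CPM in wild type libraries. It shares its 5′ sequence with the overlapping gene Anapc13, so its reads are uncertain. The same holds for Cep57, a centrosome scaffold protein that shares 5′ sequence with other listed genes and had a log2 fold change of -0.15.

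The duplication factors Cep152 and Cep192, which bring the kinase Plk4 to the centriole, had log2 fold changes of -0.11 and -0.20. Cep78, a distal centriole protein, had -0.40 with an interval of -0.81 to 0.02, and without knockout replicate 2 it was called lower (-0.58, limma adjusted p = 0.0185). Cep97, which caps centrioles, had -0.02, Cep76, which limits repeated duplication, had 0.08, and Cep120, needed for elongation, had 0.04. Cep57l1, the gene nearest to the level required, had 1.46, 2.37, 1.66 and 2.15 CPM in knockout libraries and 1.61, 1.94, 2.19 and 1.28 CPM in wild type libraries. Its groups overlapped widely, and at 20 to 38 reads in a library only large differences could be seen.

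Of the 7 genes of appendages, linker and satellites, only Cep350 was called (14.3%, against 30.9% of all genes tested). Cep350 anchors microtubules at the centrosome. It had 19.87, 20.29, 13.11 and 12.22 CPM in knockout libraries and 21.35, 25.06, 23.96 and 21.61 CPM in wild type libraries. The knockout libraries fell into 2 levels, with replicates 1 and 2 just below wild type and replicates 3 and 4 well below it. The log2 fold change was -0.51 (SE 0.157, limma adjusted p = 0.0295), and leaving out any of knockout replicates 3 and 4 and wild type replicates 2 and 3 ended the call, with adjusted p of 0.0672 to 0.0832.

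The others of this class had log2 fold changes of -0.04 to 0.16. Cep170, a subdistal appendage protein and the most abundant, had 28.62, 31.17, 25.67 and 21.82 CPM in knockout libraries and 19.86, 27.75, 25.81 and 22.37 CPM in wild type libraries, which overlapped. Cep164, the distal appendage protein that docks the centriole to the membrane, had 0.02. Cep250 and Cep68, which tie the centrioles of a pair together, had 0.04 and -0.04, the satellite protein Cep72 had 0.14, and Cep110, the older name of centriolin, had 0.15. Of 30 centriole and centrosome genes with other symbols tested, 4 were higher and 3 were lower. The 7 called are 23.3% of the 30, against 30.9% of all genes tested. The higher ones were Poc1b, a centriole wall protein (log2 fold change 0.37, limma adjusted p = 0.00334), the satellite scaffold Pcm1 (0.28, 0.00637), the scaffold Akap9 (0.26, 0.0122) and, named after its values were seen, Plk4 (0.45, 0.0376). The lower ones were the centrins Cetn2 (-0.26, 0.0209) and Cetn3 (-0.24, 0.0395) and, named after its values were seen, the distal appendage protein Fbf1 (-0.26, 0.0222). The 3 lower calls were all lost without wild type replicate 2, and 1 was left without knockout replicate 4 or wild type replicate 1. Azi1 and Ccdc41, older symbols of Cep131 and Cep83, were outside the rule by name and had log2 fold changes of 0.07 and 0.20 that were not called.

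Cep55 was the member with the widest difference. It is the midbody protein that recruits the membrane-cutting machinery at the end of cell division. Cep55 had 1.26, 5.88, 8.56 and 6.45 CPM in knockout libraries, against 0.96, 1.08, 1.04 and 1.35 CPM in wild type libraries. Knockout replicate 1 lay within the wild type range and the other knockout libraries lay well above it. Its means were 5.54 ± 3.08 CPM in knockout lungs and 1.11 ± 0.169 CPM in wild type lungs (SD, n = 4 each), a ratio of 5.0, from 16 to 124 reads in a library. The log2 fold change was 1.69 (SE 0.406, limma adjusted p = 0.00961), and 2.20 without knockout replicate 1 (limma adjusted p = 8.72e-06). It passed the threshold in all 18 alternative settings that kept the gene, with log2 fold changes of 1.42 to 2.31. The remaining gene, Cep70, which binds gamma-tubulin, had 12.72, 12.71, 13.87 and 12.91 CPM in knockout libraries and 11.24, 12.85, 11.72 and 11.03 CPM in wild type libraries, with a log2 fold change of 0.15 that was not called.

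Several genes of dividing cells were high in the same libraries as Cep55. Of 17 such genes listed, 14 were tested, 4 were higher in the knockout and 1 was lower, and 10 were higher without knockout replicate 1. The 5 called are 35.7% of the 14, against 30.9% of all genes tested. The number higher was 2 without knockout replicate 3, knockout replicate 4 or wild type replicate 2, and 6 by edgeR and by DESeq2. It was 0 with the filter at 5 CPM, under which only 2 of these genes were tested. Birc5, the survivin of the spindle midzone, had 3.18, 11.29, 9.25 and 11.06 CPM in knockout libraries and 3.77, 3.17, 3.0 and 3.33 CPM in wild type libraries (log2 fold change 1.14, limma adjusted p = 0.0172). Ccnb2, a mitotic cyclin, had 1.46, 5.14, 7.25 and 6.92 CPM in knockout libraries and 1.02, 1.02, 2.02 and 1.92 CPM in wild type libraries (1.37, 0.0198). The mitotic kinase Plk1 (1.13, 0.0116) and, named after its values were seen, the spindle motor Kif11 (1.15, 0.0259) were the other 2 higher genes. In each of these genes knockout replicate 1 lay at or near the wild type level.

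Mcm6, a replication helicase subunit, went the other way and was lower in all knockout libraries, with 8.28, 7.91, 7.73 and 9.37 CPM against 20.87, 20.38, 24.08 and 19.49 CPM in wild type libraries (log2 fold change -1.30, limma adjusted p = 4.51e-06). Pcna, the replication clamp and most abundant gene of the list, had 35.5 ± 3.51 CPM in knockout lungs and 39.5 ± 2.42 CPM in wild type lungs (SD, n = 4 each) and was not called. Summed over the 17 genes, knockout libraries held 65.43, 107.8, 116.6 and 112.2 CPM and wild type libraries 87.4, 88.36, 95.28 and 84.75 CPM. None of the 17 was at 0 reads in any library. The part of dividing cells in the level of Cep55 was not tested.

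**Figure D3:**
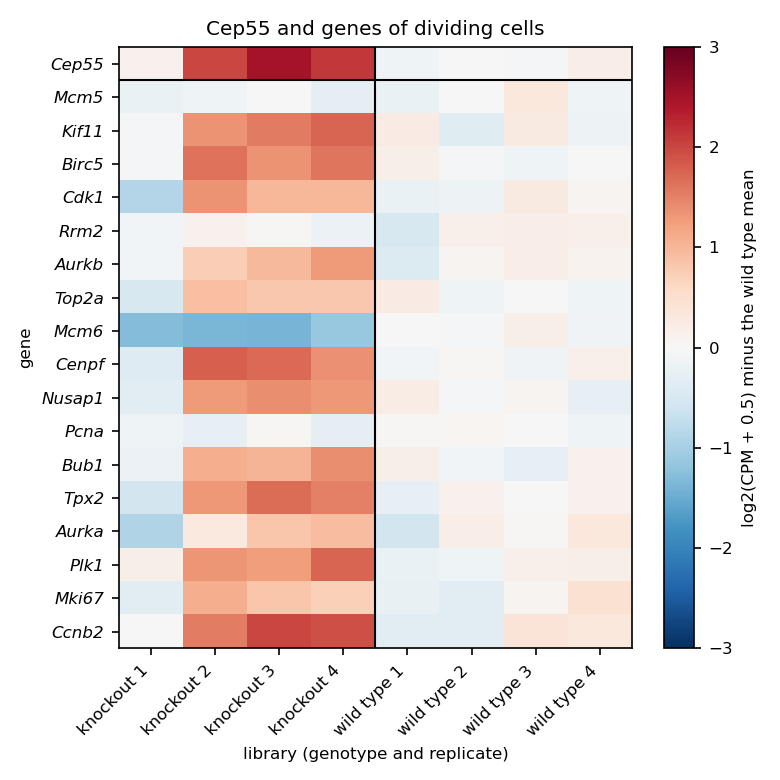
Log2(CPM + 0.5) minus the wild type mean (colour, from -3 to 3) of Cep55 (top row) and 17 genes of dividing cells (rows) in the 4 triple NOS knockout libraries (left) and the 4 wild type libraries (right). Cep55, Birc5, Ccnb2, Plk1 and Kif11 are red in knockout replicates 2 to 4 and near the wild type mean in knockout replicate 1, and Mcm6 is blue in all 4 knockout libraries.

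The start of Cep55 is shown because it holds TTTGAA, the letters of the cell cycle homology region (CHR) found in many mitotic gene promoters. The window of 30 bases lies on the plus strand at chr19:38054996-38055025 (GRCm38.p6), and the capitals mark the motif on the opposite strand, TTCAAA, 25 bases after the start. This motif was added after the data were seen, and it is common: it was found in 7 of 39 members (17.9%) and in 20.2% of all 27025 genes of the promoter table.
Cep55: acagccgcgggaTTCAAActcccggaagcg

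Many markers of multiciliated cells were lower in the knockout. Of 43 such markers tested, 2 were higher and 25 were lower in the knockout, with a median log2 fold change of -0.30, so that 62.8% were called against 30.9% of all genes tested. The share was 66.7% for alveolar type 2 cells (9 genes), 57.1% for type 1 cells (7) and 41.7% for club and secretory cells (12). For immune cells it was 62.5% (8 genes), for fibroblasts and smooth muscle 37.5% (8) and for endothelial cells 14.3% (7). A high share was thus not particular to multiciliated cells. Markers of other epithelial cells did not all move the same way. Lower ones were 5 of 9 genes of alveolar type 2 cells and 5 of 12 genes of club and secretory cells. The summed level of the club and secretory genes overlapped between genotypes (ratio of means 1.053). Of 7 genes of alveolar type 1 cells, 3 were higher and 1 was lower. Their sum was 8187 to 9017 CPM in knockout libraries and 7138 to 7722 CPM in wild type libraries, a ratio of 1.181. Foxj1, the master factor of motile cilia, had 56.64, 47.81, 47.69 and 54.79 CPM in knockout libraries and 82.36, 82.39, 90.19 and 85.39 CPM in wild type libraries (log2 fold change -0.72, limma adjusted p = 6.09e-05). Tmem212, a ciliated cell membrane protein, had 18.6 ± 3.05 CPM in knockout lungs and 103 ± 7.38 CPM in wild type lungs (SD, n = 4 each; log2 fold change -2.45, limma adjusted p = 3.78e-08). The radial spoke gene Rsph1 was lower (-0.80, 1.84e-05), Fam183b was higher (0.83, 6.09e-05), and Tppp3, the most abundant, was not called (0.01, 0.907). Summed over the 43 genes, knockout libraries held 1442, 1382, 1429 and 1446 CPM against 1681, 1545, 1684 and 1654 CPM in wild type libraries, a ratio of 0.868, and no marker was at 0 reads. The sum over the 48 members was 751.9 to 787.2 CPM in knockout libraries and 795.6 to 830.8 CPM in wild type libraries, a ratio of 0.944.

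Set against Foxj1, Ift27 was lower still in the knockout. Ift27 divided by Foxj1 was 0.366, 0.406, 0.417 and 0.411 in knockout libraries and 0.511, 0.473, 0.482 and 0.483 in wild type libraries, which did not overlap. This ratio too was chosen after its values were seen. The markers changed unequally, and Tmem212 fell more than Ift27 while Tppp3 was not called. The direction of such a ratio therefore depends on the marker chosen. The part of multiciliated cells in the lower members was not tested.

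**Figure D4:**
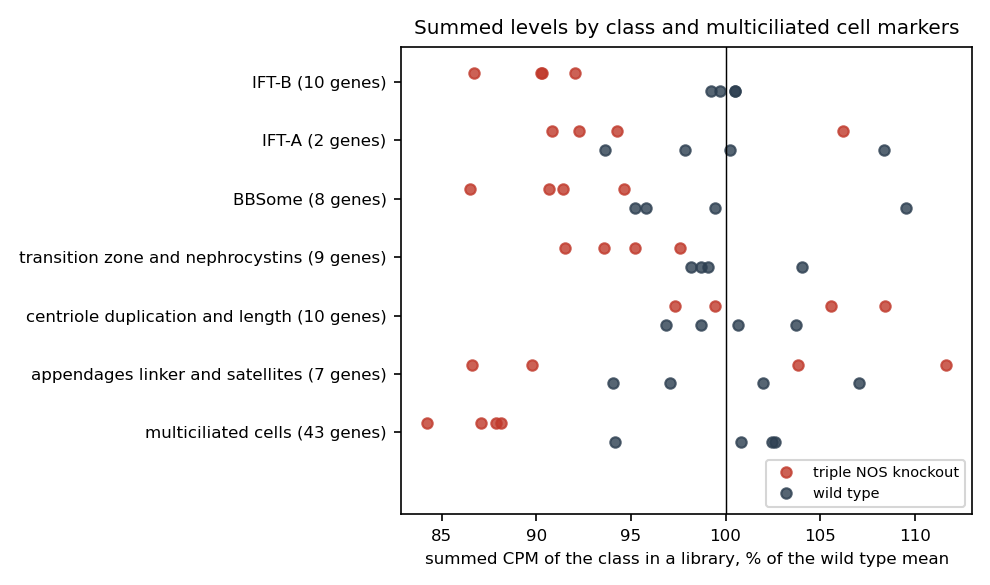
Summed CPM of each role class except that of Cep55 and Cep70, and of 43 multiciliated cell markers, in each library, as a percentage of the wild type mean of that class (x axis, which does not start at 0); red points are the 4 triple NOS knockout libraries and dark points, drawn below them, the 4 wild type libraries. The class of Cep55 and Cep70, not drawn, had a ratio of means of 1.45. The IFT-B, BBSome, transition zone and marker sums lie lower in all knockout libraries than in any wild type library. Their ratios of means are 0.898, 0.908, 0.945 and 0.868. The margin is narrow for the BBSome (highest knockout 55.1 CPM, lowest wild type 55.44 CPM) and the transition zone (113.8 and 114.5 CPM). In these 2 classes 6 of 8 and 8 of 9 members were not called. Of all single genes tested, 31.2% had no overlap. The sum of the centriole duplication and length class overlaps between genotypes, with a ratio of 1.027.

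The promoters of the members were searched for RFX letters in the RefSeq windows of 300 bases (250 before to 50 after the start, GRCm38.p6, both strands). Of the 48 genes, 39 had an entry, and Cep76, Cep120, Cep192, Cep350, Ift80, Ift81 and Ift122 were among those with none. The full X-box was found in 8 of 39 members (20.5%) and in 5.26% of all 27025 genes of the table. The short motif GTTGCCA, which can form one side of an X-box and overlaps it in Bbs1, was found in 7 of 39 members (17.9%) and in 5.02% of all genes. Either was found in 12 of 39 members (30.8%) and in 9.31% of all genes. Among members with an entry, all 5 that were lower in the knockout (Ift27, Ift88, Bbs7, Bbs4 and B9d1) held one of the letters, as did 7 of 32 that were not called (Ift57, Bbs1, Nphp4, B9d2, Tctn1, Tctn2 and Tctn3). Taken singly, the X-box was in 2 of the 5 and 6 of the 32, and the short motif in 3 and 4. No Cep gene with an entry held either, and many of the 32 are Cep genes, so these groups also differ in gene family. A link between motif and call was not tested. The forkhead letters TGTTTAC were found in 0 of 39 members and in 4.05% of all genes. A match is a string of letters and was not tested as a binding site.

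The matches in B9d1 and Ift88 are shown as windows of 30 bases for comparison with Ift27. Both lie on the plus strand of GRCm38.p6, B9d1 at chr11:61505151-61505180 and Ift88 at chr14:57424079-57424108. The capitals mark the short motif on the opposite strand, TGGCAAC, which began 20 bases after the start in B9d1 and 21 bases after it in Ift88.
B9d1: ccgagagcctccTGGCAACagcgcgcggcc
Ift88: tggagtcgcgccTGGCAACggctgggcgtc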

How the data were processed

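Genotype and replicate of each library come from the labels. CPM values of 15728 genes were deposited by the authors with 2 decimals. Per the submitters' processing notes, the build was mm9 and the tools included HISAT2 2.0.5, BWA 0.7.12-r1039 and edgeR, in no stated order. How tags were assigned to genes, the annotation and the use of strand were not stated in the labels or headers. Per the labels' protocols, RNA integrity was above 7.0 and the 8 libraries were sequenced together. Below 100 CPM, 100% of values were whole multiples of 1 read (tolerance 0.1 reads), which gave library totals of 13014134 to 18593913 reads. The floor of 3 reads covers counting error only, while the confidence intervals of fold changes come from the spread between libraries. The chi-square per gene between libraries of 1 genotype was 11.92 to 20.1, so none was a repeat of another.

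The 14065 genes that reached 1 CPM in 4 or more libraries were tested with limma 3.58.1 in R 4.3.3 on log2(CPM + 0.5) with a variance trend and genotype as the only term, which understates the fold of low genes. The script was tested on simulated data. Alternatives were pseudocounts of 1 and 0.1, no filter, a filter at 5 CPM, TMM, median-ratio and quantile scaling, no variance trend, edgeR 4.0.16 and DESeq2 1.42.0 on the recovered reads, a replicate block, and leaving out each library. Per-library values are given for called genes, the most abundant gene of each role class and the 2 nearest to the rule's level, except that 2 members, counted but not called, are not reported singly here; from other lists the 4 strongest calls and the most abundant gene are named. The members and all lists were chosen with earlier results of these data known. Cep110 was placed with the appendage genes after its identifier was seen to be that of centriolin. Overlapping genes come from GENCODE M21 names, and 8 of the 48 members (Bbs4, Bbs12, Cep63, Cep250, Cep290, Ift140, Nphp4 and Tctn1) overlap a listed gene, so their reads are uncertain. The labels do not say more of the animals than genotype, strain, age and tissue, and where replicates share a litter or batch the p-values measure only the spread between these samples.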

Additional observations from a re-analysis of the deposited data

Results flagged for a closer look

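Within each genotype, 5 of 92 gene and group combinations had 1 library far from the other 3 for the group's range, and chance gives such a gap in about 1 of 20 groups. In the knockout, replicate 1 was lowest for Ift20, at 122.68 CPM against 132.93 to 134.5 CPM in the other knockout libraries. The same library was lowest for B9d1, at 18.48 CPM against 21.52 to 21.98 CPM. Knockout replicate 2 was highest for Cep78, at 5.41 CPM against 2.92 to 3.25 CPM, and for Cep192, at 3.04 CPM against 2.19 to 2.31 CPM. In wild type, replicate 3 was highest for Cep120, at 31.29 CPM against 28.27 to 28.35 CPM. Of these genes only B9d1 was called with all 8 libraries, and its limma adjusted p was 0.0507 without knockout replicate 1. Cep78 was called lower without knockout replicate 2 (log2 fold change -0.58, limma adjusted p = 0.0185).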

How the results depend on the processing

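Without 1 library, the members called numbered 1 to 2 higher and 2 to 7 lower in the knockout (2 and 6 with all 8), with 3 lower without wild type replicate 2 and 2 without wild type replicate 3. Ift27 and Cep55 were called in every alternative that tested them. Under all other settings 2 to 3 members were higher and 6 to 7 lower. Over all genes, 1741 to 2387 were higher and 1552 to 2100 lower without 1 library, against 2341 and 2010 with all 8. Cep57l1, not called, had log2 fold changes of -0.01 to 0.19 without 1 library (0.10 with all 8), the negative one without wild type replicate 4 (limma adjusted p = 0.968). Ift20 was called under quantile normalization alone (log2 fold change -0.20, limma adjusted p = 0.0256). The causes were not tested. With the replicate number as a block, 2 members were higher and 6 lower, and 2384 and 2014 of all genes; 1 BBSome partner was then lower, where 0 were without the block. Same-numbered libraries did not deviate together (r of 0.043, 0.026, -0.003 and 0.065), and differently numbered ones had r of -0.134 to 0.12. Whether the numbers pair the animals cannot be decided from this, since a weak pair effect would look the same. Depth limits the low genes: Nphp4 had 13 to 50 reads in a library.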

Other observations

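Of the 48 members, 11 start within 1000 bases of a listed gene that runs the opposite way, and none of these 11 was called. Over all 48 members 16.7% were called, so few calls would be looked for among 11. Among their 11 partners 3 were higher and 2 lower in the knockout, where 30.9% of all genes tested were called. Ift80 had a log2 fold change of 0.08 beside Smc4, a condensin subunit, with 0.55 (limma adjusted p = 0.00202). Cep290 had 0.06 beside Tmtc3 with 0.44 (limma adjusted p = 0.000709), and Ift46 had -0.02 beside Arcn1, a coatomer subunit, with 0.24 (limma adjusted p = 0.0326). Tctn3 had 0.16 beside Entpd1, an ectonucleotidase, with -0.66 (limma adjusted p = 0.00146), and Cep170 had 0.16 beside Sdccag8, itself a centrosome gene, with -0.39 (limma adjusted p = 0.00499). The differences within these pairs were not tested.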
